A study of Homo sapiens with 15 samples.

Results

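The comparison described here sets cultures given free fatty acids alone (FFA, 500 µM, no C3R) against blank control cultures (NC). Its differences rest on 6 of the 15 libraries of the study, and its estimate of the spread on all 15. The groups were FFA replicates 1 to 3 and NC replicates 1 to 3. The other 9 libraries came from cultures given the same 500 µM of fatty acids together with C3R at 25 µM (FCL), 50 µM (FCM) or 100 µM (FCH), 3 libraries each. All 15 carry the labels of 1 human line, HepG2, a line derived from a liver tumour, and FFA cultures stand in the study as its high-fat cell model. The labels call the 3 libraries of a group biological replicates and give neither the makeup of the fatty acid mixture nor the time of exposure, so a p-value here reflects how far these cultures spread and nothing wider. The members were the FFA and NC columns of the deposited table of TPM, a relative transcript level scaled for transcript length and for the total of its library. A gene was tested where it reached 1 TPM in at least 3 of the 15 libraries, which 12950 genes did.

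Fatty acids taken up by a cell are bound by small cytosolic carrier proteins, activated to acyl-CoA, and then either burned in mitochondria and peroxisomes or stored as triglyceride in lipid droplets. Free fatty acids also act as ligands of the PPAR nuclear receptors, which switch on genes of fatty acid binding, oxidation and droplet coating. The SREBP factors, held in the endoplasmic reticulum while sterol is plentiful, drive cholesterol synthesis and LDL uptake. Excess fatty acid is known in hepatocytes for oxidative stress, endoplasmic reticulum stress and release of the stress hormone FGF21.

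The labelled cell type was checked against its markers first, because it bears on every liver gene named here. Of 15 hepatocyte and HepG2 markers, 8 stayed below 1 TPM in all 15 libraries. AFP, the fetal albumin that HepG2 cells are known for, was listed at 0, 0.13 and 0 TPM in FFA cultures and at 0 in the 3 NC libraries. TTR was listed at 0 in all 6, and APOB and the hepatocyte regulator HNF4A were at most 0.07 and 0.26 TPM in FFA cultures and 0.09 and 0.17 TPM in NC cultures. Albumin (ALB) was at 1.62, 0.225 and 0.735 TPM in FFA cultures, against 0.355, 0.235 and 0.655 TPM in NC cultures. KRT7, a keratin of ductal and other epithelia, was meanwhile at 1862, 2165 and 1626 TPM in FFA cultures and at 1798, 1759 and 1745 TPM in NC cultures. The other 8 markers of bile duct cells were at most 18.7 TPM in any library, with KRT19 at 0.89, 0.65 and 1.6 TPM in FFA cultures and 1.23, 0.73 and 0.71 TPM in NC cultures, EPCAM and SOX9 at most 0.4 TPM in all libraries, and CFTR at or near 0. That list summed to 1649 to 2185 TPM in FFA cultures and 1759 to 1811 TPM in NC cultures, nearly all of it KRT7, and 1 of its 5 tested members, CLDN4, was called higher, a call lost with the replicate block in the 6 libraries alone. The cultures are therefore called by their label below, and these levels go against the hepatocyte label. The summed hepatocyte markers were 35.9 to 53.25 TPM in FFA cultures and 38.35 to 47.36 TPM in NC cultures, and none of the 7 that were tested was called. Of the leukocyte markers 13 of 15 were below 1 TPM in all libraries and PTPRC, which all leukocytes carry, did not pass 0.01 TPM. The remaining pair, CD68 and CSF1R, brought the sum of that list to 143.7 to 211.2 TPM in FFA cultures, against 54.63 to 63.63 TPM in NC cultures. All 9 endothelial markers were below 1 TPM in every library, and none of the 6 tested stellate and fibroblast markers was called. In bulk RNA, more cells of a type and more RNA per cell cannot be told apart.

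The 6 libraries were close to each other in breadth. Genes at 1 TPM or more numbered 11787 to 12053 in FFA and 11470 to 12293 in NC libraries, and correlations of log2(TPM + 1) were 0.98 to 0.983 within either group and 0.965 to 0.978 between them. Transcripts of the mitochondrial genome took 8.76%, 10.3% and 7.33% of TPM in the FFA libraries and 12%, 10.8% and 11.7% in the NC libraries. The depth of the libraries is unknown, since TPM do not keep it. FFA replicate 2 was the FFA library nearest to the NC mean in 692 of the 955 called genes (72.5%).

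In FFA cultures 708 genes rose and 247 fell relative to NC, 955 of the 12950 tested (7.37% called, 5.47% higher and 1.91% lower). These are calls at an adjusted p under 0.05 in limma's moderated test on log2(TPM + 1), with Benjamini-Hochberg adjustment over all tested genes. A further step to at least 1 on the log2 scale left 258 genes (1.99%), 200 higher and 58 lower. The median log2 change was 0.06 over all tested genes, 0.79 among the called rises and -0.76 among the called falls. The genes called higher took 12.8%, 11.5% and 14.2% of all TPM in the FFA libraries, against 6.35%, 6.87% and 6.78% in the NC libraries. Those called lower took 4.05%, 4.36% and 3.75% in FFA and 7.23%, 6.94% and 7.06% in NC libraries. Both sets were picked on these same values, so the direction of these shares was fixed in advance and only their size is described. FFA and NC values did not overlap in 952 of the 955 called genes and in 3845 of all tested genes (29.7%). The first of these counts follows in large part from the same selection.

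**Figure D1:**
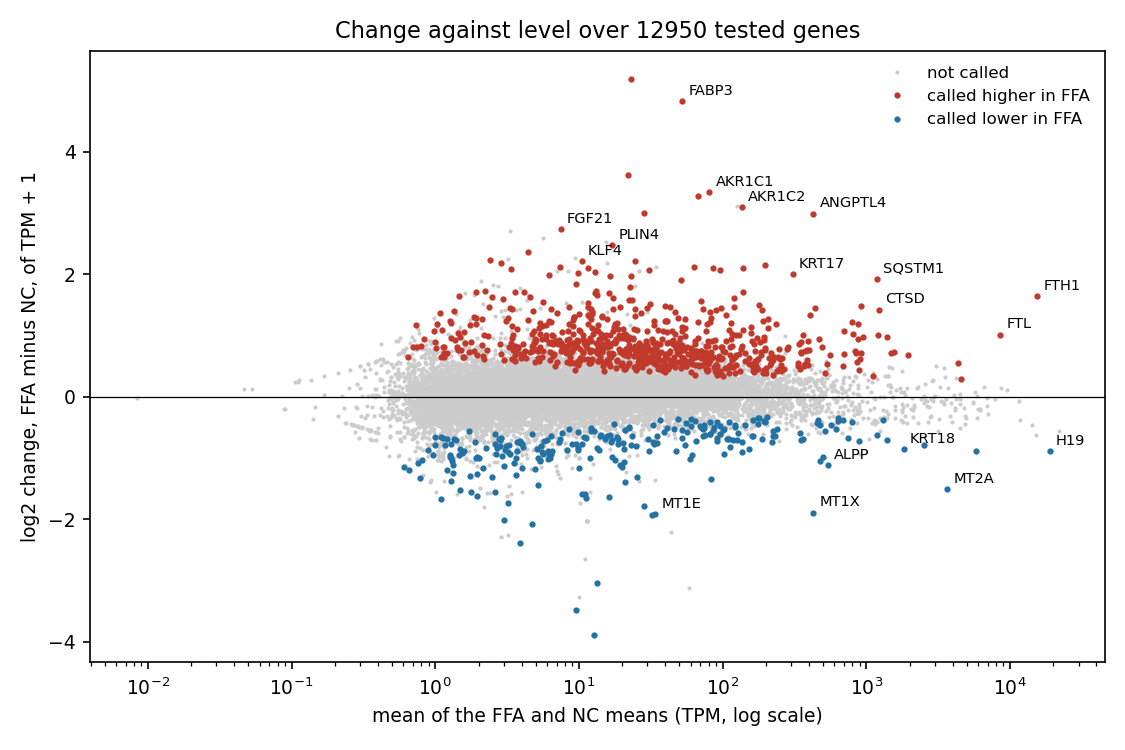
Change against level over all 12950 tested genes. Each point is a gene, the horizontal axis is the mean of the FFA and NC means in TPM on a log scale, and the vertical axis is the log2 change of TPM + 1, FFA minus NC. Called genes are red where higher in FFA (708) and blue where lower in FFA (247). FABP3 stands near 4.83 on the vertical axis and the ferritin chain FTH1 is at the far right among the rises.

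The number of calls depended on single libraries. Leaving out FFA replicate 3 gave 427 calls, FFA replicate 1 gave 459, NC replicate 1 gave 511 and NC replicate 2 gave 584. Leaving out FCM replicate 3 gave 1457, a library that enters through the shared estimate of the spread. The split was 815 higher and 624 lower with quantile normalization, 1039 and 673 with each library's trend over GC content removed, and 1049 and 804 with the trend over GC content and transcript length removed. Of the 955 genes, 276 were called in every one of the 26 alternatives that tested them, 228 of them higher and 48 lower. Some low genes were not tested in all 26. A gene given as risen or fallen in the report without a remark on alternatives is 1 of these 276, and "every alternative" below means every one that tested the gene.

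Among genes that bind and burn fatty acids, the rises differed widely in size. Of 10 tested fatty acid and acyl-CoA binding proteins 2 rose (20%) and 1 fell (10%), with a median log2 change of 0.04. Over all tested genes the shares were 5.47% higher and 1.91% lower, and every list count below stands beside these. FABP1 was called higher (1.23) and FABP6 lower (-0.70). Both calls were lost in the 6 libraries alone and without NC replicate 1, NC replicate 3 or FFA replicate 3, among other settings. FABP5 (0.0008) and DBI (0.05) did not pass. FABP3, a cytosolic fatty acid binding protein best known from heart and muscle, was at 120, 83.9 and 102 TPM in FFA cultures and at 3.06, 2.93 and 1.87 TPM in NC cultures. Every FFA library was far above every NC library, and the log2 change of 4.83 (SE 0.31, with an adjusted p = 5.82e-07 by limma) was the largest of any gene in the lists. PDK4, the kinase that shuts off pyruvate dehydrogenase when fat is burned, was at 134, 71.8 and 163 TPM in FFA cultures, against 8.71, 10.6 and 14.7 TPM in NC cultures. Its lowest FFA value, in replicate 2, was still well above the highest NC value (3.28 on the log2 scale, SE 0.27, adjusted p = 3.87e-06 by limma). CPT1A, the gate of fatty acid import into mitochondria, was at 67.3, 61.6 and 60.3 TPM in FFA and 26.1, 33.2 and 32.3 TPM in NC cultures, a log2 change of 1.03 (SE 0.15).

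**Figure D2:**
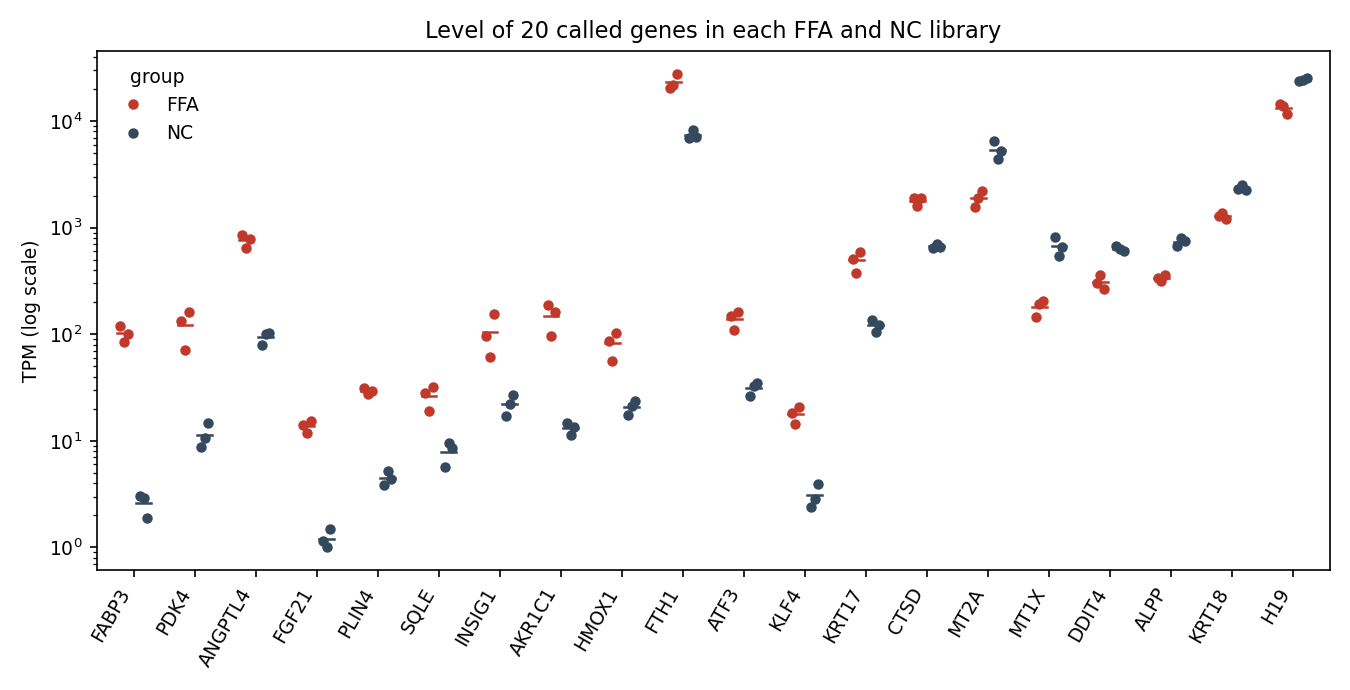
Level of 20 called genes in each library. The vertical axis is TPM on a log scale, each dot is 1 library, short lines are group means, and FFA (red) stands left of NC (dark). FFA and NC dots are separate in each of the 20 genes, from FABP3 (84 to 120 TPM in FFA) to H19 (11616 to 14486 TPM in FFA).

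Of 18 tested genes of mitochondrial beta-oxidation, 5 rose (27.8%, beside 5.47% of all tested genes) and none fell. The median log2 change was 0.21 over the list. All 5 rises were called under every alternative. They were the 2 chains of the trifunctional protein, which carries out the last steps on long chains, an entry dehydrogenase, a thiolase and an electron acceptor. The trifunctional beta chain HADHB was at 131, 104 and 110 TPM in FFA and 42.5, 51.6 and 52.2 TPM in NC cultures (log2 change 1.22). The alpha chain HADHA, ACAA2 (the thiolase), ETFA (the acceptor) and ACADVL (the very long chain dehydrogenase) rose by 0.93, 0.84, 0.95 and 0.71. ACADM, the medium chain dehydrogenase, did not pass, at 5.91, 5.81 and 4.44 TPM in FFA and 2.55, 5.73 and 6.19 TPM in NC cultures. Peroxisomal genes had 4 of 28 members higher (14.3%, beside 5.47% of all tested genes) and a median of 0.01. ECH1, an auxiliary enzyme for unsaturated chains, rose by 0.71 to 1112, 1180 and 1129 TPM in FFA cultures, against 667, 706 and 713 TPM in NC cultures. The others were CAT, PEX13 and PEX11A, calls lost with the replicate block in the 6 libraries alone, and PEX13 also without NC replicate 1, NC replicate 2 or FFA replicate 3. No member of the ketogenesis list (6 tested) was called.

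Activation, storage and release of fatty acids moved in single members. Of 11 tested uptake and activation genes 4 rose, ACSL5 by 1.40, ACSL1 by 0.99, ACSS2 by 0.79 and ACSF2 by 0.70, all of them acyl-CoA synthetases. With the replicate block in the 6 libraries alone only ACSS2 stayed called. Transport proteins of the plasma membrane did not pass, with SLC27A4 at 0.01. PLIN4, a lipid droplet coat protein, was at 31.3, 27.4 and 29.6 TPM in FFA and 3.88, 5.2 and 4.43 TPM in NC cultures (2.47 on the log2 scale, SE 0.15, adjusted p = 2.53e-07 by limma). The 3 FFA libraries lay close together and far above NC. PLIN2, the droplet coat of most cells, was low at 1.59, 1.56 and 2.44 TPM in FFA and 0.235, 0.305 and 0.495 TPM in NC cultures. It rose by 1.08, a call lost without FFA replicate 3, and PLIN3, another coat protein, was at 303, 282 and 300 TPM in FFA and 263, 264 and 261 TPM in NC cultures and did not pass (adjusted p = 0.474 by limma). Of 10 genes of triglyceride synthesis 2 rose (20%, beside 5.47% of all tested genes). They were the acyltransferase gene AGPAT2 (0.82) and DGAT2, an enzyme of the last step (0.69). DGAT2 was at 4.19, 3.45 and 3.76 TPM in FFA and 1.9, 1.65 and 2.37 TPM in NC cultures, a call lost without NC replicate 2, FFA replicate 1 or FFA replicate 3. DGAT1, the other enzyme of that step, was at 0.17 and not called. LIPE, hormone-sensitive lipase, rose by 1.47, to only 3.41, 4.99 and 3.44 TPM in FFA cultures, against 0.579, 1.26 and 0.539 TPM in NC cultures.

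Secreted factors gave some of the clearest differences. ANGPTL4, an inhibitor of lipoprotein lipase and a textbook PPAR target, was at 856, 650 and 780 TPM in FFA cultures, against 80, 101 and 104 TPM in NC cultures (a log2 change of 2.99 with an SE of 0.15, adjusted p = 4.23e-08 by limma). This was the lowest adjusted p among the genes named. FGF21 was at 14, 11.9 and 15.3 TPM in FFA and 1.14, 1.02 and 1.48 TPM in NC cultures, a log2 change of 2.73 (SE 0.25). INHBE, a liver activin chain, rose by 1.27 and the vasodilator peptide gene ADM by 1.45. GDF15, a stress hormone, rose by 0.84, a call lost with the replicate block in the 6 libraries alone. These were 5 of 10 tested members of the list, which had a median of 0.69. The receptors that sense fatty acids did not pass themselves. PPARA was at 4.22, 2.47 and 5.45 TPM in FFA and 2.1, 2.3 and 2.29 TPM in NC cultures (adjusted p = 0.162 by limma), PPARG at 0.32 and PPARD at -0.05, and none of 13 receptors and coactivators was called.

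Genes along the whole path of cholesterol synthesis were among the rises. Of 13 tested genes from squalene to cholesterol 8 rose and none fell (median log2 change 0.54), as did 4 of 13 in the mevalonate arm (0.58) and 5 of 15 in SREBP control and LDL uptake (0.23). IDI1, the isomerase that makes the second isoprene unit, was at 45.2, 28.9 and 77.5 TPM in FFA and 6.95, 9.62 and 16.5 TPM in NC cultures (log2 change 2.07, SE 0.36, adjusted p = 0.00233 by limma). MSMO1, which removes methyl groups from sterol precursors, was at 35.9, 20.9 and 69 TPM in FFA and 5.55, 6.84 and 9.8 TPM in NC cultures (2.22). In both genes FFA replicate 2 was lowest and replicate 3 highest of the FFA libraries, and the groups did not overlap. SQLE, the enzyme that commits squalene to the ring, rose by 1.61, FDFT1 by 1.34 and CYP51A1 by 1.32. INSIG1, which holds SREBP in the endoplasmic reticulum and is itself an SREBP target, was at 97, 61.2 and 155 TPM in FFA and 17, 22.1 and 26.7 TPM in NC cultures (2.12).

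Genes of the fatty acid branch of SREBP targets gave mixed values. FASN was at 479, 458 and 515 TPM in FFA and 531, 675 and 625 TPM in NC cultures, and SREBF1 at 171, 149 and 194 TPM in FFA and 231, 245 and 231 TPM in NC cultures. Both were lower in all 3 FFA libraries and neither passed (log2 change -0.33 with adjusted p = 0.455 for FASN, -0.46 with adjusted p = 0.145 for SREBF1, by limma). SCD, which puts the first double bond into saturated fatty acids, rose to 618, 532 and 703 TPM in FFA cultures, against 252, 324 and 398 TPM in NC cultures (0.94, SE 0.18). Of 11 genes of fatty acid synthesis 2 were called higher (18.2%, beside 5.47% of all tested genes). They were SLC25A1 and the glucose-sensing factor MLXIPL, and neither was called under every alternative. NR1H3, the oxysterol receptor LXR alpha, rose by 0.79, and the cholesterol exporter gene ABCG1 was at -0.50 (adjusted p = 0.0744 by limma). In the RefSeq promoter windows (GRCh38.p14, 250 bases before to 50 after a start) the sterol response element TCACNCCAC, searched on both strands, was found in 1 of 43 windows of these sterol genes, that of SREBF2, and in 1.13% of all 35116 windows.

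Genes that answer electrophiles and oxidants rose in more than 1 family. In the NRF2 and detoxification list 16 of 29 tested genes rose and none fell, with a median log2 change of 0.66, and 9 of the 16 were called under every alternative. Of 7 aldo-keto reductases 4 rose. AKR1C1 was at 189, 95.5 and 160 TPM in FFA and 14.8, 11.4 and 13.4 TPM in NC cultures (log2 change 3.34, SE 0.23, adjusted p = 8.95e-07 by limma). AKR1C2 and AKR1C3 rose by 3.09 and 2.15, though the files do not show how reads were split between these similar genes. AKR1B1, which reduces glucose and lipid aldehydes, rose by 1.48 to 1442, 1246 and 1390 TPM in FFA cultures, against 447, 507 and 509 TPM in NC cultures. HMOX1, which breaks down heme, was at 86.3, 56 and 104 TPM in FFA and 17.6, 21 and 23.5 TPM in NC cultures (1.90, SE 0.19). TXNRD1, the cytosolic thioredoxin reductase, was at 172, 135 and 143 TPM in FFA and 53.8, 71.4 and 88.2 TPM in NC cultures (1.09, SE 0.15). NQO1, a quinone reductase, and SRXN1, which restores peroxiredoxins, rose by 0.86 and 0.91. Not every classical member moved. The glutathione synthesis gene GCLM (0.49) and the cystine transporter gene SLC7A11 (-0.09) did not pass, and NFE2L2, which encodes NRF2, was at 8.53, 5.52 and 8.35 TPM in FFA and 2.61, 4.48 and 6 TPM in NC cultures (adjusted p = 0.161 by limma).

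The core of the antioxidant response element, TGACNNNGC on either strand, was found in 10 of 29 promoter windows of the NRF2 list (34.5%) and in 13.3% of all 35116 windows. It was in 6 of 16 windows of called genes and in 4 of 13 windows of the others. The 250 bases before a TXNRD1 start are shown because this gene rose in all 3 FFA libraries and its window holds the element. The window lies on the plus strand at chr12:104215529-104215778 of GRCh38.p14, and capitals mark the match, which begins 99 bases before the start.
TXNRD1: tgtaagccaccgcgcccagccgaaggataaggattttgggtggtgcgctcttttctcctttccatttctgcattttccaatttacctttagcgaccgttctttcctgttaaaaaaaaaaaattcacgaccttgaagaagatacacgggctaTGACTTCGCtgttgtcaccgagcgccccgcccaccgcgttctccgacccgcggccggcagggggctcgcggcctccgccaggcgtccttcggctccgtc
A match of letters is a description of the window and not a measured binding site.

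Iron storage genes were the most abundant of the genes that rose. The heavy ferritin chain FTH1 was at 20633, 22012 and 27452 TPM in FFA and 6926, 8258 and 7122 TPM in NC cultures (log2 change 1.65, SE 0.16, adjusted p = 3e-05 by limma). FTL, the light chain, was at 11032, 9532 and 13836 TPM in FFA and 5798, 5669 and 5362 TPM in NC cultures (1.01). Together the chains held 3.16%, 3.15% and 4.12% of all TPM in FFA libraries, against 1.27%, 1.39% and 1.25% in NC libraries. Both genes have processed copies in the genome, so part of their reads could be placed elsewhere. TFRC, the iron import receptor, was at 33.3, 28.9 and 22.1 TPM in FFA and 12.1, 23 and 25.7 TPM in NC cultures and did not pass. BMP6, a ligand that reports iron stores in liver, rose by 1.10. In all, 4 of 22 iron genes rose (18.2%, beside 5.47% of all tested genes). Among antioxidant enzymes the mitochondrial dismutase SOD2 rose by 1.29, to 71.2, 55.1 and 82.8 TPM in FFA cultures, against 27, 26 and 29.6 TPM in NC cultures, and GPX1, a glutathione peroxidase, by 0.74. The cytosolic dismutase SOD1 was lower in every FFA library, at 151, 159 and 161 TPM against 197, 202 and 201 TPM in NC cultures (-0.35), a call that held under 13 of 26 alternatives and was lost without any single FFA, NC or FCH replicate and without FCM replicate 1.

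Metallothioneins, cysteine-rich proteins that store and buffer zinc and copper, fell together. Of 5 tested genes 4 fell and none rose, with a median log2 change of -1.51. MT2A was at 1548, 1911 and 2230 TPM in FFA and 6528, 4414 and 5268 TPM in NC cultures (-1.51, SE 0.27, adjusted p = 0.00296 by limma). MT1X was at 146, 191 and 205 TPM in FFA and 826, 538 and 661 TPM in NC cultures (-1.89), and MT1E at 10.9, 16.1 and 14 TPM in FFA and 55.4, 53.3 and 53 TPM in NC cultures (-1.92). In all 3 genes the highest FFA library was under the lowest NC library. MT1F fell by 1.04, a call lost when NC replicate 1 or 3, any FFA replicate or FCH replicate 3 was left out. How reads were shared out among these near-identical genes is uncertain. SLC30A1, the zinc exporter that metallothioneins share their zinc-sensing factor with, went the other way, at 12.5, 10.9 and 14.8 TPM in FFA and 3.57, 7.85 and 8.23 TPM in NC cultures (0.92, adjusted p = 0.0192 by limma). That call was lost without NC replicate 1, FFA replicate 1 or FFA replicate 3. MTF1, the zinc-sensing factor, was at 0.20 and did not pass.

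The core of the metal response element, TGCACNC or TGCGCNC on either strand, was found in all 5 windows that RefSeq gave for the 11 listed metallothionein genes, only some of which were tested, and in 29.6% of all 35116 windows. The 250 bases before the starts of MT2A and MT1X are shown because these 2 genes carry most metallothionein RNA here. Both lie on the plus strand of GRCh38.p14, MT2A at chr16:56608334-56608583 and MT1X at chr16:56682220-56682469, and capitals mark each match, 7 in MT2A and 4 in MT1X.
MT2A: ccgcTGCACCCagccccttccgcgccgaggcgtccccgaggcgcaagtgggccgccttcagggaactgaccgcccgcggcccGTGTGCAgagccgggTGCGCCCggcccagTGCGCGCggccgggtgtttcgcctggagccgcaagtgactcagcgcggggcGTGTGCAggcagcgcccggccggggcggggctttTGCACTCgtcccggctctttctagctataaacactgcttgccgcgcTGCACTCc
MT1X: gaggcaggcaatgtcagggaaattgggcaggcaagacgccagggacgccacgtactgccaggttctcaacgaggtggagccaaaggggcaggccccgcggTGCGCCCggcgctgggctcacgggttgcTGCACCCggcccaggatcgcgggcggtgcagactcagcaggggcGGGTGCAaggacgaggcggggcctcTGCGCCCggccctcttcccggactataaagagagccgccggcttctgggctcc
The element is present before genes that were lower in FFA cultures, and the windows say nothing on which factor was bound.

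Stress signalling rose in part of its members. In the list of ATF4 and the integrated stress response, which slows translation and adjusts amino acid supply, 10 of 30 tested genes rose (median log2 change 0.28), or 6 without FFA replicate 3. ATF3, a stress-induced transcription factor, was at 147, 110 and 162 TPM in FFA and 26.2, 32.9 and 35 TPM in NC cultures (2.11, SE 0.20, adjusted p = 1.58e-05 by limma). PPP1R15A, the phosphatase subunit that ends the response, was at 256, 196 and 345 TPM in FFA and 84.2, 102 and 89.1 TPM in NC cultures (1.49), and its constitutive relative PPP1R15B rose by 1.23. ATF4 itself rose by 0.59 (adjusted p = 0.00397 by limma). The asparagine synthetase gene ASNS and the glutathione-degrading gene CHAC1 were not called, at 0.29 and -0.26. DDIT4, an inhibitor of mTORC1 that this response can induce, fell to 302, 362 and 265 TPM in FFA cultures, against 678, 631 and 602 TPM in NC cultures (-1.05, SE 0.13). Of 27 genes of endoplasmic reticulum folding 5 rose (18.5%, beside 5.47% of all tested genes). Rises in the list numbered 2 in the 6 libraries alone, with the replicate block in these 6, or with no filter. They also numbered 2 when NC replicate 1, NC replicate 2 or FFA replicate 1 was left out. They numbered 3, not all of them among these 5, when NC replicate 3 was left out, and also 3 when FFA replicate 3 or FCH replicate 2 was. In the 6 libraries alone, with quantile normalization and with either GC correction, 1 member was called lower. HERPUD1, a degradation factor of that compartment, was at 109, 87.9 and 205 TPM in FFA and 44, 46.9 and 48.7 TPM in NC cultures (1.41). The main chaperone HSPA5 was at 331, 201 and 585 TPM in FFA and 126, 189 and 209 TPM in NC cultures, overlapping in FFA replicate 2, and did not pass (adjusted p = 0.0533 by limma).

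Autophagy and lysosome genes rose in many members by modest steps. SQSTM1, the receptor that delivers ubiquitinated cargo and also frees NRF2 from its inhibitor, was at 1928, 1378 and 2354 TPM in FFA and 437, 558 and 461 TPM in NC cultures (log2 change 1.93, SE 0.17, adjusted p = 1.15e-05 by limma). With ULK1, WIPI1, TFE3, ATG14 and MAP1LC3B it made 6 of 34 tested autophagy genes higher, or 11 without FCM replicate 3. ATG14 and MAP1LC3B were called under 10 of 25 and 9 of 26 alternatives, and both were lost without NC replicate 1 or 2 or FFA replicate 1 or 3. Of 38 lysosomal hydrolases and membrane proteins 15 rose and none fell (median 0.38). That count was 5 without FFA replicate 1 or 3, 6 without NC replicate 1, 8 if NC replicate 2 was left out, and 9 with the replicate block in the 6 libraries alone. The protease gene CTSD was at 1901, 1606 and 1885 TPM in FFA and 646, 701 and 658 TPM in NC cultures (1.42, SE 0.13). CTSL, another protease, rose by 1.03, progranulin (GRN) by 1.07 and the sialidase gene NEU1 by 1.07, and these 4 with NPC2, the cholesterol carrier of the lysosome counted with the LDL uptake genes (0.71), were called under every alternative. The lysosomal membrane proteins LAMP1 (0.20) and LAMP2 (0.48) did not pass. TFE3, a factor that drives lysosomal genes, rose by 0.82, while its relatives TFEB and MITF were at 0.29 and 0.11 and were not called. CD68, a lysosomal membrane protein used above as a leukocyte marker, was at 206, 139 and 197 TPM in FFA and 58.9, 52.8 and 61.5 TPM in NC cultures (1.61).

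Immediate early genes and Kruppel-like factors, transcription factors and feedback regulators that respond within minutes to growth and stress signals, rose in large part. Of 37 immediate early genes 20 rose and none fell (median log2 change 0.71), or 12 with the replicate block in the 6 libraries alone. JUND, an AP-1 subunit, was at 674, 453 and 803 TPM in FFA and 216, 263 and 213 TPM in NC cultures (1.44, SE 0.23, adjusted p = 0.00129 by limma). NR4A2, an orphan nuclear receptor, was at 20.9, 11.9 and 30.7 TPM in FFA and 5.19, 5.1 and 5.44 TPM in NC cultures (1.73), and TRIB1, a pseudokinase of lipid metabolism, rose by 1.98. DUSP6, which switches off ERK, rose by 1.66. The best-known members moved less, with FOS at 0.71, a call lost without NC replicate 1, FFA replicate 1 or FFA replicate 3, and JUN, JUNB and EGR1 not called at 0.39, 0.31 and 0.26. Of 11 Kruppel-like factors 6 rose and none fell, and the median was 1.01. KLF4 was at 18.3, 14.2 and 20.9 TPM in FFA and 2.42, 2.83 and 3.97 TPM in NC cultures (2.21, SE 0.24), and KLF2 rose by 2.02, KLF6 by 1.24 and KLF11 by 1.18. In all 4 genes FFA replicate 2 was the lowest FFA library and was above every NC library. The AP-1 site TGANTCA was found in 1 of 37 promoter windows of the immediate early genes and in 7.71% of all windows, and the cyclic AMP response element TGACGTCA in 4 of 37 (10.8%) and in 1.85% of all windows.

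**Figure D3:**
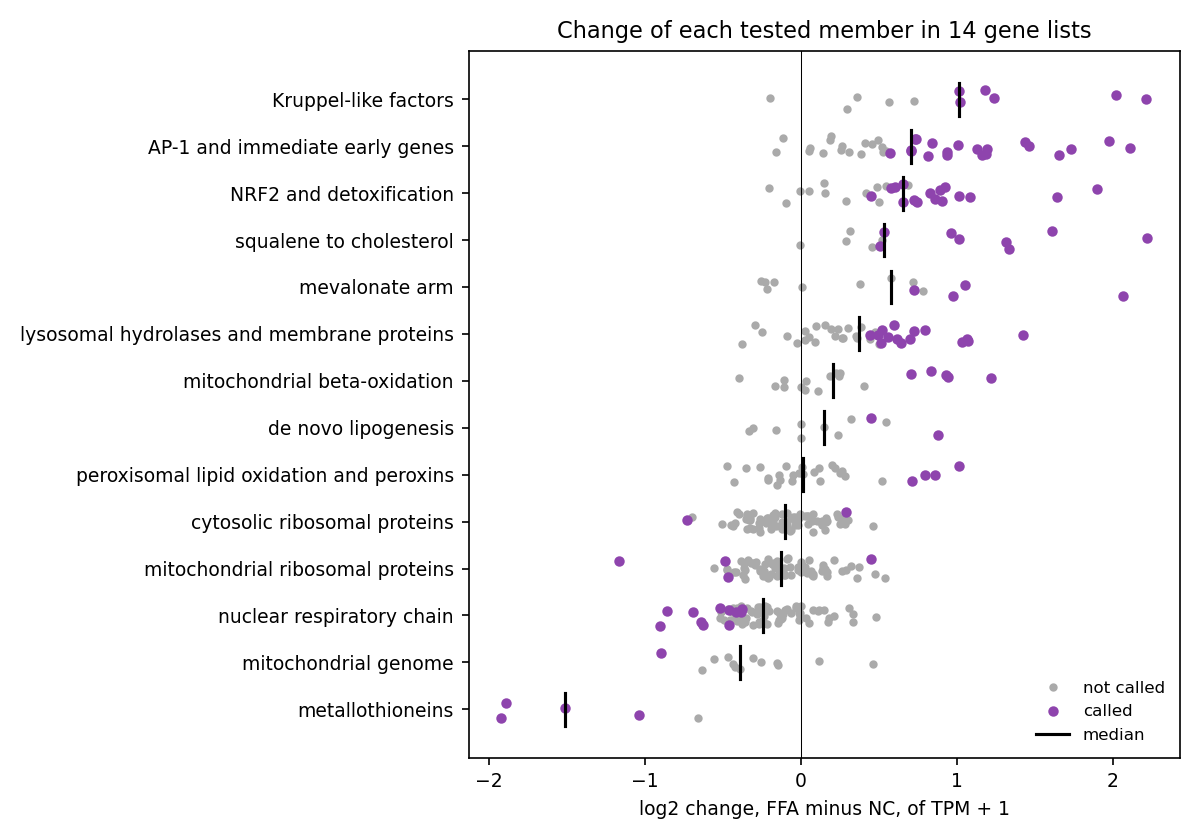
Change of each tested member in 14 gene lists. The horizontal axis is the log2 change of TPM + 1, FFA minus NC, each dot is a gene, purple where called and grey where not, and black lines are medians. The median is 1.01 for the Kruppel-like factors at the top, -0.24 for the nuclear respiratory chain and -1.51 for the metallothioneins at the bottom.

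Some genes that hold back the cell cycle rose. Of 27 p53 targets and growth arrest genes 8 rose (median log2 change 0.40), or 5 without FFA replicate 3. CDKN1A, which encodes the cyclin-dependent kinase inhibitor p21, was at 288, 248 and 292 TPM in FFA and 96.5, 98.5 and 112 TPM in NC cultures (1.42, SE 0.11, adjusted p = 3.31e-06 by limma). The inhibitors CDKN1C and CDKN2B rose by 1.45 and 1.58, and GADD45A, a damage and stress gene, by 1.44. The inhibitor CDKN2C did not pass, at 64.5, 67.3 and 64.9 TPM in FFA and 64.9, 68.7 and 67.7 TPM in NC cultures. None of 30 mitosis genes was called (median 0.01), and of 39 replication genes E2F1 (0.85) and CDT1 (0.72) rose, CDT1 not without FFA replicate 1 or 3, a share of 5.13% beside 5.47% of all genes. MDM2, a direct p53 target, was at 3.19, 6.89 and 4.57 TPM in FFA and 1.44, 3.92 and 3.72 TPM in NC cultures and did not pass. AREG and EREG, ligands of the EGF receptor, rose by 2.00 and 1.08, AREG to 11.9, 9.48 and 10.3 TPM in FFA cultures, against 1.56, 1.94 and 2.2 TPM in NC cultures. The kinase gene PIM1 was at 157, 101 and 211 TPM in FFA and 32.8, 34.1 and 37.8 TPM in NC cultures (2.07).

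Interferon genes were called in both directions, inflammatory genes mostly higher, and matrix genes only higher in the fit as reported. Of 27 NF-kB targets 5 rose (18.5%, beside 5.47% of all tested genes) and 1 fell (3.7%, beside 1.91%). That fall was lost without NC replicate 2. IL1B, an inflammatory cytokine, rose to a low 3.78, 2.2 and 3.22 TPM in FFA cultures, against 0.554, 0.484 and 0.874 TPM in NC cultures (log2 change 1.30), and the chemokine CXCL2 rose by 1.09. CXCL8 was at 0.18 and not called. Of 32 TGF-beta and matrix genes 7 rose, or 11 with either GC correction. None fell as reported. Members called lower numbered 3 with the GC trend removed, 4 with the GC and length trend removed and 2 with quantile normalization. SMAD7, a brake on the pathway, was at 23.3, 19.4 and 20.2 TPM in FFA and 6.56, 8.79 and 8.34 TPM in NC cultures (1.31). The basement membrane collagens COL4A1 and COL4A2 rose by 0.85 and 0.62 and vimentin (VIM) by 0.81. Of 22 interferon-stimulated genes 4 rose and 3 fell. OAS1, a sensor of double-stranded RNA, was at 111, 113 and 100 TPM in FFA and 44, 50.7 and 46.2 TPM in NC cultures (1.18), whereas IFITM2, which blocks virus entry, was at 358, 302 and 343 TPM in FFA and 823, 574 and 618 TPM in NC cultures (-0.99). The count of rises was 2 without NC replicate 1, FFA replicate 1 or FFA replicate 3.

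Keratins and clock genes were added as lists after their values had been seen. Of 11 keratins 4 rose and 3 fell. KRT8 and KRT18, the pair that forms the filaments of simple epithelia, both fell, KRT18 to 1293, 1376 and 1218 TPM in FFA cultures, against 2287, 2492 and 2280 TPM in NC cultures (log2 change -0.86, SE 0.09, adjusted p = 4.8e-05 by limma). KRT17, a keratin of stressed and basal epithelia, was at 512, 375 and 594 TPM in FFA and 137, 105 and 123 TPM in NC cultures (2.00, SE 0.17), and KRT16 and KRT14 rose by 2.12 and 1.64 from low levels. Near-identical keratin copies make the division of reads among the last 3 uncertain. Of 12 clock genes 6 rose, or 2 without FFA replicate 3 and 3 without NC replicate 1 or FFA replicate 1. PER1, a light- and stress-responsive clock repressor, was at 214, 115 and 328 TPM in FFA and 65.5, 58.5 and 58.6 TPM in NC cultures (1.70), NR1D1 rose by 1.48, and DBP, a clock output, was at -0.23 and not called.

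Several abundant transcripts fell. H19, an imprinted long non-coding RNA, was at 14486, 13919 and 11616 TPM in FFA and 23786, 24187 and 25576 TPM in NC cultures (log2 change -0.88, SE 0.15, adjusted p = 0.00233 by limma). It made up 1.45%, 1.39% and 1.16% of all TPM in FFA libraries, against 2.38%, 2.42% and 2.55% in NC libraries. ALPP, the placental alkaline phosphatase, was at 339, 315 and 362 TPM in FFA and 673, 796 and 742 TPM in NC cultures (-1.12), with reads shared among close paralogs. MAT2A, which makes the methyl donor S-adenosylmethionine, fell by 1.34 and the arginine methyltransferase gene PRMT7 by 1.02. Among the largest falls with a symbol were LSP1 (-1.93), FSTL4 (-1.74), GGT5 (-1.66), SUSD2 (-1.64) and ANKRD2 (-1.59). LSP1 was at 11.3, 21.8 and 8.07 TPM in FFA and 50.9, 54.3 and 48.5 TPM in NC cultures. PSCA, a surface antigen, was among the largest rises, at 244, 199 and 233 TPM in FFA and 48.8, 47.8 and 57.8 TPM in NC cultures (2.11).

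Some nuclear genes of the respiratory chain fell. Of 77 tested subunits none rose and 11 fell (14.3%, beside 1.91% of all tested genes), and the median log2 change was -0.24. The count of falls was 22 in the 6 libraries alone and 20 without FCM replicate 3. It was 1 without FFA replicate 3, 3 with median-of-ratios rescaling or without NC replicate 1 or FFA replicate 1, 4 with no filter or without NC replicate 2 or 3, 6 without FCH replicate 3 or with the replicate block in all libraries, and 7 without FCH replicate 1 or 2 or with the block in the 6 libraries. NDUFA3, a small subunit of complex I, was at 97.1, 90.2 and 95.2 TPM in FFA and 189, 194 and 150 TPM in NC cultures (-0.90, SE 0.14, adjusted p = 0.00119 by limma) and was the 1 member called under every alternative. Of 13 mitochondrial genome genes 1 fell, MT-CO3, at 4079, 5572 and 2784 TPM in FFA and 7523, 7520 and 7184 TPM in NC cultures (-0.89). That call held under 11 of 25 alternatives and was lost without NC replicate 1, 2 or 3 or FFA replicate 1 or 3. Cytosolic ribosomal proteins had 1 rise and 1 fall among 79 (1.27% each, median -0.10). Mitochondrial ribosomal proteins had 1 rise and 3 falls among 77 (1.3% and 3.9%, median -0.12). Over all tested genes 5.47% rose and 1.91% fell. These lists are of short transcripts, and length moved with the change: with the 12485 genes of known length cut into 4 equal bins, the bin of shortest transcripts had a median log2 change of -0.04 and 119 falls, and that of the longest a median of 0.11 and 16 falls. With each library's dependence on GC content and transcript length taken out, the nuclear respiratory chain had 12 falls and a median of -0.235. As reported it had 11 falls and a median of -0.243. Falls over all genes also grew with that step, to 804 of 12485, beside 247 of 12950 (1.91%) as reported. Whether length accounts for the falls in this list was not tested.

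**Figure D4:**
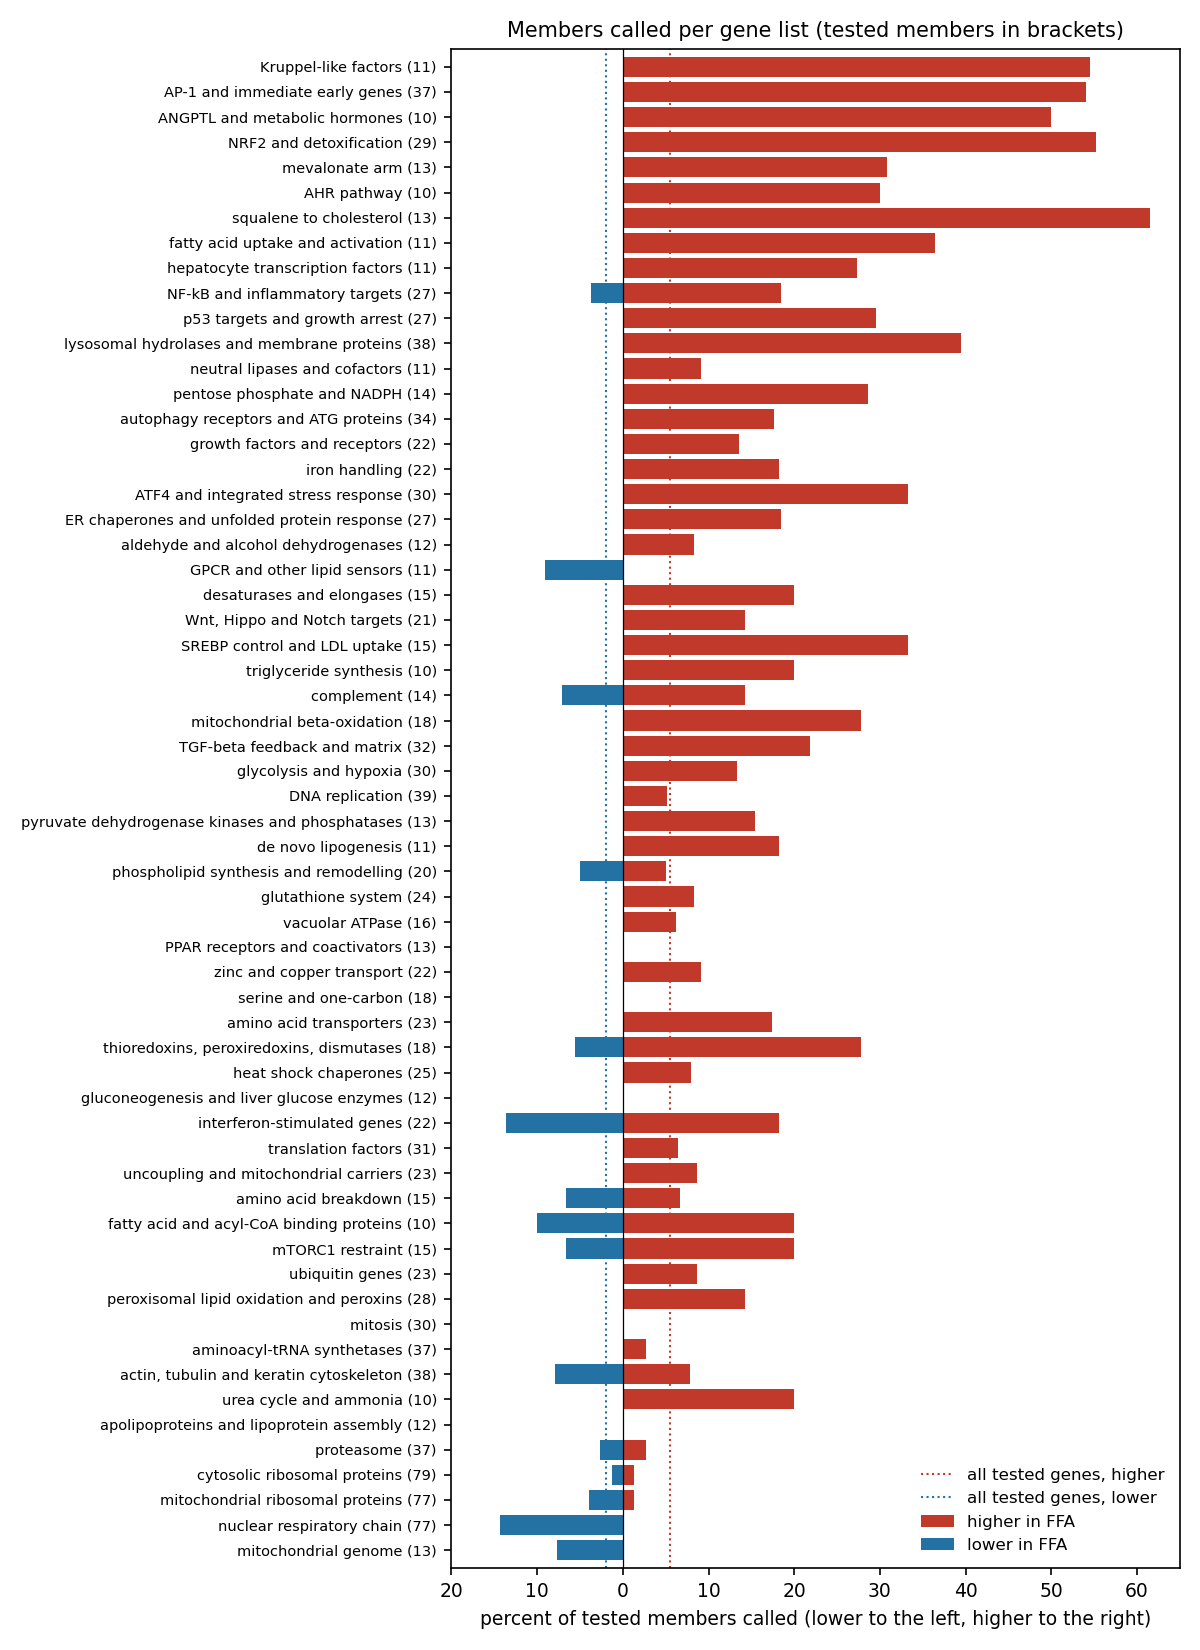
Share of tested members called in each gene list with at least 10 tested members, from the highest median log2 change at the top to the lowest at the bottom, without the 2 lists added later. Bars to the right are percent called higher in FFA and bars to the left percent called lower, and dotted lines mark 5.47% and 1.91%, the shares over all 12950 tested genes. Squalene to cholesterol, NRF2, Kruppel-like factor and immediate early lists reach over 50% on the right.

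Other metabolic lists ranged from no call to 30% of members higher, beside 5.47% of all genes. No member was called among 12 apolipoproteins and assembly genes, 12 genes of gluconeogenesis and liver glucose handling or 18 of serine and one-carbon metabolism. Of 30 glycolysis and hypoxia genes 4 rose, or 2 without NC replicate 1, NC replicate 2 or FFA replicate 1, with ALDOC, a glycolytic aldolase, at 0.76. Of 14 genes of the pentose phosphate pathway and NADPH supply 4 rose, or 2 without NC replicate 1, NC replicate 3, FFA replicate 1 or FFA replicate 3, and PGD, its second dehydrogenase, was called under every alternative (0.61). Of 10 genes of the urea cycle and ammonia handling 2 rose. ASS1, an enzyme of the cycle, was at 1124, 1057 and 1088 TPM in FFA and 531, 557 and 518 TPM in NC cultures (log2 change 1.02). Of 10 genes of the AHR pathway, a sensor of aromatic compounds, 3 rose. Its target CYP1A1 rose by 1.73, to 4.03, 2.73 and 5.12 TPM in FFA cultures, against 0.446, 0.786 and 0.216 TPM in NC cultures. On the log2(TPM + 1) scale the change of such low genes is understated.

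Levels in the cultures that received C3R along with the fatty acids are given for the same genes, as the mean ± SD of 3 libraries per group. No test is made between them here, since all of them share the fatty acid exposure and 1 set of controls. FABP3 was at 86.3 ± 24.4 TPM in FCL, 106.9 ± 57.0 TPM in FCM and 83.6 ± 28.2 TPM in FCH cultures, and ANGPTL4 at 763 ± 67.4, 968 ± 205 and 825 ± 57.3 TPM in the same order. These levels were near the 102 ± 17.8 and 762 ± 104 TPM of FFA cultures and far from the 2.62 ± 0.65 and 94.9 ± 12.9 TPM of NC cultures. AKR1C1 was at 115 ± 35.3, 84.6 ± 9.15 and 60.7 ± 6.64 TPM from the low to the high dose, between the 148 ± 47.9 TPM of FFA and the 13.2 ± 1.72 TPM of NC cultures. MT2A was at 2009 ± 739, 2164 ± 685 and 2255 ± 193 TPM, beside 1896 ± 341 TPM in FFA and 5404 ± 1064 TPM in NC cultures. H19 was at 12788 ± 1021, 16606 ± 4599 and 20183 ± 1323 TPM, beside 13340 ± 1520 TPM in FFA and 24516 ± 939 TPM in NC cultures. DDIT4 was at 415 ± 36.3, 784 ± 107 and 544 ± 31.4 TPM, beside 309.8 ± 49.1 TPM in FFA and 637 ± 38.3 TPM in NC cultures.

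**Figure D5:**
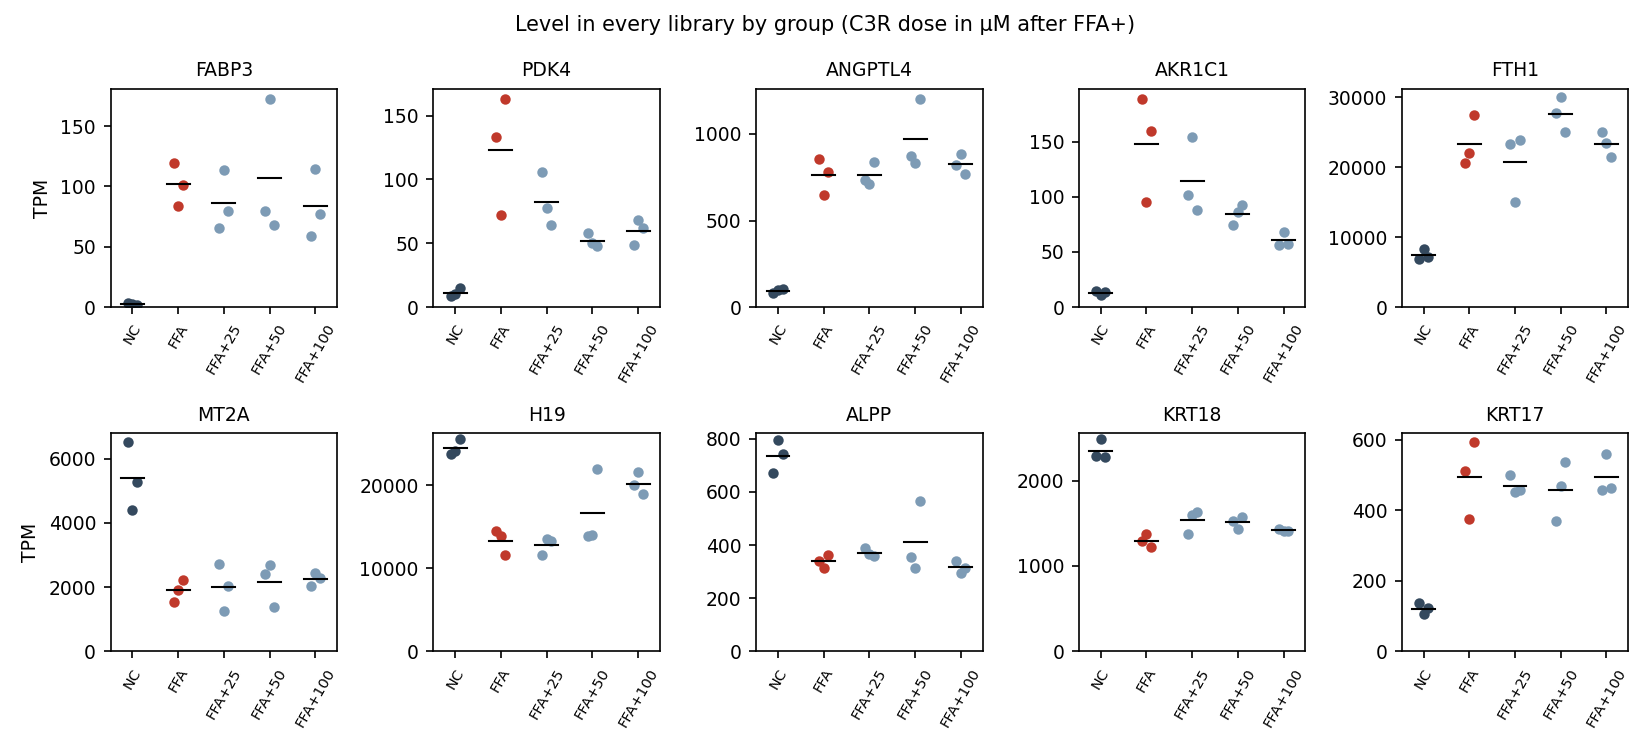
Level of 10 genes in every library of the 5 groups. The vertical axes are TPM from 0, dots are libraries, lines are group means, and groups run from NC through FFA to fatty acids with 25, 50 and 100 µM C3R. FABP3, ANGPTL4 and KRT17 stay near their FFA level at all 3 doses, and H19 is at 20183 TPM on average at the highest dose, beside 13340 TPM in FFA and 24516 TPM in NC cultures.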

How the data were processed

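RNA was prepared with a stranded poly(A) kit, per the labels' protocols. Reads were aligned to the human genome with HiSat2 and quantified per gene with RSEM, per the series' design text. The annotation, the versions and whether strand entered the counts were not given in the sources used here, so overlapping and antisense genes are uncertain. The authors deposited TPM in 1 table of 63241 genes. Columns sum to 1001311 to 1001313 TPM, except FCH replicate 3 at 990018. In 12275 of 12950 tested genes the other 14 columns share 1 remainder below 0.01 TPM above 0, as a constant added per gene would give. No label describes such a step, and a constant equal in FFA and NC would leave their differences in TPM as they were. On log2(TPM + 1), the scale of the tests, it would alter the change, most for low genes. The size of such a constant is not known beyond that remainder.

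TPM were taken as log2(TPM + 1) and fitted in limma 3.58.1 (R 4.3.3) with 1 mean per group over all 15 libraries and a mean-variance trend. The test was two-sided, and a gene was called at a Benjamini-Hochberg adjusted p under 0.05. The fit was tested on simulated data with independent noise per gene and no trend within a library. The real libraries carry trends over GC content, so that test does not show how calls hold under them. GC content and length came from GENCODE v29 for 96.4% of tested genes, and promoters from RefSeq (GRCh38.p14), matched by symbol.

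Members and 77 gene lists were chosen with earlier results of these data known, so list counts are descriptions, and 2 more lists were added after values were seen. Named genes were taken per list as up to 6 called members of largest change, up to 3 uncalled members of highest level and members that define the list's step. To these came the 20 largest rises and 20 largest falls with a symbol and no overlap, and the 10 called genes of largest TPM difference each way. Genes outside that rule, such as PIM1, FOS, LAMP1, TFEB and MDM2, were chosen after their values were seen. Alternatives changed the pseudocount, filter, scaling, libraries, replicate block and GC trend, and removing the GC and length trend was added after seeing the data. Some genes are not reported here.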

Additional observations from a re-analysis of the deposited data

How the results depend on the processing

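The 955 calls, 708 higher and 247 lower, were 1439 with quantile normalization (624 lower), 1712 with the GC trend removed (673 lower), 1853 with the GC and length trend removed (804 lower) and 398 with the replicate block in the 6 libraries alone (305 higher, 93 lower). Median-of-ratios rescaling gave 402 falls. Leaving out each of the 15 libraries gave 427 to 1457 calls, 337 to 1075 higher and 90 to 382 lower. List members called higher, 214, were 139 with the block in the 6 libraries and 137 to 269 with a library left out. Those called lower, 37, were 21 with no filter, 73 with quantile normalization, 60 in the 6 libraries alone, 24 with the block in these 6, 74 and 96 with the 2 trends removed, and 13 to 71 with a library left out. Of 247 named genes called, 160 to 247 stayed called with a library left out, and none changed sign. With the replicate block over all 15 libraries 783 genes were called. Over all tested genes, deviations of FFA and NC libraries with the same number from their group means correlated at -0.126, -0.000506 and -0.0299. With 3 libraries a group, these values cannot decide whether the numbers pair the samples. Other alternatives kept these counts within 1.5 times of those reported. The median change of all genes lay between -0.02 and 0.11 in all alternatives. The cause of these shifts was not tested, and since TPM keep no depth, what depth limits cannot be given.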

Other observations

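Some of the largest differences fell on pseudogenes, read-through genes and repeated small RNAs, whose reads can be placed on several copies. UBBP3, a ubiquitin pseudogene, was at 0, 2.87 and 0 TPM in FFA and 41, 16.8 and 15.7 TPM in NC cultures, a call lost without NC replicate 1 or FFA replicate 3, while the parent gene UBB was at 2453, 2446 and 2641 TPM in FFA and 2535, 2546 and 2419 TPM in NC cultures. The read-through gene RBM14-RBM4 was at 59.1, 37.9 and 45.3 TPM in FFA and 1.22, 25.1 and 2.61 TPM in NC cultures, called under 19 of 26 alternatives. HBA1, a globin gene with a near-identical neighbour, was at 0.01, 2.37 and 0.01 TPM in FFA and 6.87, 5.87 and 8.18 TPM in NC cultures, called under 19 of 25. The calls of both were lost without NC replicate 1 or 3 or FFA replicate 1 or 3. PLA2G12A, a phospholipase gene, spread widely within FFA, at 4.98, 12.7 and 31.1 TPM, against 2.22, 3.03 and 3.43 TPM in NC cultures, and its call was lost without any single NC replicate and without FFA replicate 2 or 3.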
